A study of Mus musculus with 12 samples.

Results

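The hearts described here are the 3 libraries of nonpregnant females on the control diet, chosen by their labels as 3 of the 12 samples in the series. The mice were wild-type females of the C57BL/6 strain (C57BL/6J in the treatment protocol). They ate a purified control diet in which fat gives 10% of the energy, stayed on it after the first 15 weeks without being bred, and were killed at an age of 27 to 29 weeks. The other 9 libraries, which carry a Western diet, a recent delivery or both, were not used for any value below, and no group was compared with another. The labels give the tissue as heart, trimmed before freezing, and do not name the chamber. They do not say outright that each library came from a separate mouse, so the spread between replicates 1, 2 and 3 may be technical as well as biological.

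Heart muscle contracts without pause, and the adult mouse ventricle is known for a fixed choice of protein isoforms: the fast alpha myosin heavy chain in the thick filament, cardiac actin and cardiac troponins in the thin filament, and a calcium pump of the sarcoplasmic reticulum held back by phospholamban. Its energy comes mainly from fatty acids burnt in a dense mitochondrial network, whose respiratory chain is built partly from mitochondrial and mainly from nuclear genes. Cardiomyocytes are large and hold much of the tissue's RNA, while endothelial cells, fibroblasts, pericytes and macrophages are numerous and small. In a whole-tissue library, fewer cells of a type and less RNA per cell cannot be told apart.

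Total counts were 27118406, 24295320 and 22754591 in replicates 1, 2 and 3. The upper limit that a count of 0 allows, 3 counts of the total, was 0.111, 0.123 and 0.132 CPM, the count scaled to a library total of 1000000, for counting error only. Levels of different genes are compared as TPM, here the count divided by the deposited gene length and scaled to sum to 1000000 over all genes of a library. Replicate 1 stood somewhat apart: Pearson's r of log2 CPM over 8099 genes was 0.989 and 0.988 between it and the others, against 0.996 between replicates 2 and 3, so values are given for each library where they differ. Errors are SDs over the 3 libraries. In all, 12525 genes reached 1 TPM in every library, of which 11315 are protein-coding, and 84 reached 1000 TPM. No counts in any library were found for 23944 of the 49315 genes in the files. Ranks below are by mean TPM among the 43092 nuclear genes longer than 200 bases. As a scale, the nuclear gene of rank 10 had 4811 TPM, that of rank 100 had 782.9 TPM, that of rank 1000 had 81.65 TPM and that of rank 5000 had 13.56 TPM.

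Mitochondrial transcripts took 19.75%, 20.10% and 20.21% of all counts and 40.81%, 40.29% and 40.54% of all TPM. They are the 35 mitochondrial features of the files, 13 protein genes and 22 transfer RNA genes. Mitochondrial ribosomal RNA is thus not in these shares, and the levels of 6 of the protein genes are uncertain, as described below. Parts of mt-Co1 and mt-Nd4 also have nuclear copies, so their levels are less certain too. The 3 libraries lay within 1 percentage point of each other on both scales, and the TPM scale, which divides by gene length, gave the larger share. Only 27, 24 and 25 genes held 0.5 of all TPM. Among nuclear genes the same share was spread over 246, 215 and 212 genes, and 90% of nuclear TPM over 4361, 4088 and 4021 genes. Protein-coding genes took 98.82% ± 0.0118 of the counts (SD, n = 3).

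Of the first 100 nuclear genes, 35 were nuclear subunits or carriers of the respiratory chain. The fuel metabolism list, which includes myoglobin, had 21, and 15 were sarcomere genes. A further 5 were ribosomal proteins or elongation factors and 4 handled calcium. None of the 100 was an ion channel, a transcription factor, a hormone receptor or a matrix gene of the lists used here. Myoglobin (Mb), the oxygen store of muscle, ranked 1, with 18690, 19040 and 19460 TPM. It was followed by cardiac actin (Actc1), alpha myosin heavy chain (Myh6), ventricular regulatory light chain (Myl2) and heart fatty acid binding protein (Fabp3) at ranks 2 to 5. Next came the calcium pump Atp2a2, phospholamban (Pln), essential light chain Myl3, cardiac troponin I (Tnni3) and the adenine nucleotide carrier Slc25a4 at ranks 6 to 10. This order depended on the gene length used: by the longest annotated transcript Myl2, Actc1, Myh6 and Tnni3 ranked 2 to 5, Fabp3 ranked 8 and Pln 13.

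**Figure D1:**
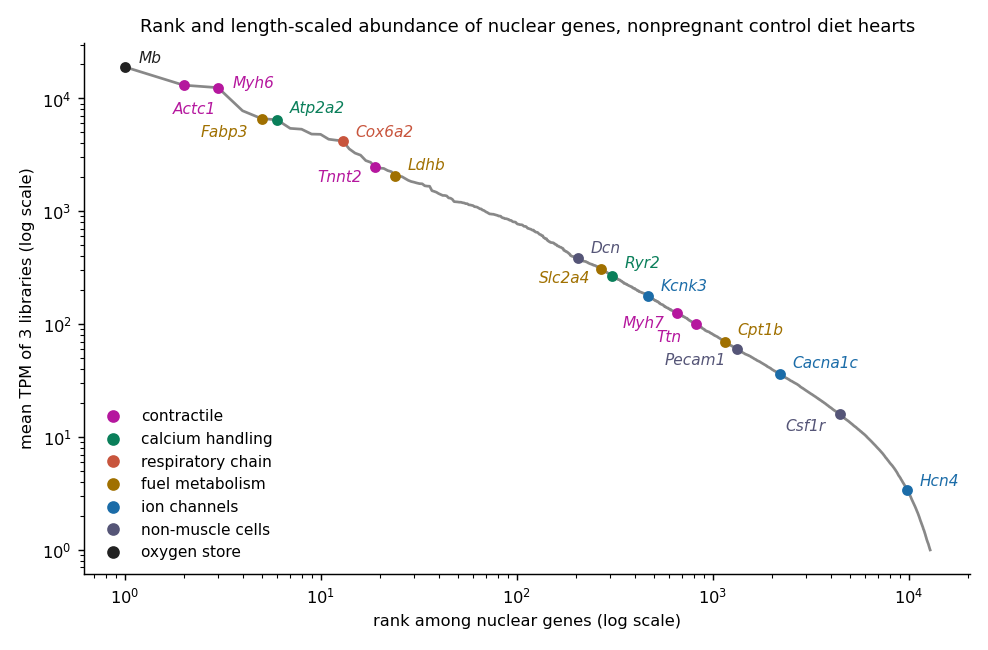
Mean TPM of the 3 libraries (y axis, log scale) against rank among nuclear genes (x axis, log scale), with named genes marked by role. Mb, Actc1 and Myh6 stand at 19060, 13120 and 12460 TPM, while the marked ion channels lie between 177.7 TPM (Kcnk3, rank 469) and 3.427 TPM (Hcn4, rank 9809).

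Counts and length-scaled levels ranked genes differently. By CPM, mt-Co1, mt-Cytb, Myh6, mt-Nd1 and mt-Nd5 ranked 1 to 5. Myh6, with 35370 ± 475.8 CPM, dropped to rank 11 of all genes by TPM, behind short mitochondrial genes, Mb, Actc1 and a 57-base feature. Long genes fell furthest in rank: dystonin (Dst), a linker of the cytoskeleton, ranked 160 by CPM and 2538 by TPM, and Wnk1, Tacc2, Ahnak and the basement membrane proteoglycan Hspg2 fell by 848 to 1352 ranks. The features that rose furthest were all shorter than 200 bases, namely Gm10736, mt-Tl2, Mir208b, Mir6236 and mt-Ty. The 57-base feature Gm23935 reached 14580 ± 1394 TPM from 9168, 10019 and 8311 counts, and nuclear features of 200 bases or shorter held 3.22% ± 0.275 of nuclear TPM. Such features are left out of the nuclear ranks.

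The sarcomere list, of 72 genes in 7 roles, held 11.64%, 12.56% and 12.04% of nuclear TPM. Myosin heavy chain came almost entirely from Myh6, the fast alpha isoform, with 12400, 12540 and 12420 TPM. Myh7, the slow beta isoform of fetal and slow skeletal muscle, had 137.5, 117.8 and 121.3 TPM at rank 656. The ratio of Myh6 to Myh7 was 90.2, 106.5 and 102, or 99.7 ± 8.46 (SD, n = 3), and Myh6 made up 98.6% ± 0.154 of the TPM of 8 sarcomeric heavy chains. With the longest annotated transcript as length the ratio was 75.1. Myh7b, a related heavy chain, stood at 54.6 ± 8.40 TPM, and the skeletal chains Myh1 and Myh2 at 0.0652 and 0.0123 TPM.

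Both genes lie on the minus strand of chromosome 14 (GRCm38), Myh6 at chr14:54941981-54966927 and Myh7 at chr14:54970688-54994634, with 3760 bases between them. Their coding sequences are 91.7% identical, and the longest run of identical bases is 245. Of Myh7's longest transcript, 9.49% has a near-identical copy elsewhere (98% identity or more over at least 75 bases), and the rest of it has none. The first 90 coding bases (GENCODE M21, 5′ to 3′) are shown as an example, with the 20 bases that differ between the genes in capitals. This stretch differs more than the coding sequences do as a whole.
Myh6: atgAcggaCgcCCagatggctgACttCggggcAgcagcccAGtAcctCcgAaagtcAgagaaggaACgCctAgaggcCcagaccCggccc
Myh7: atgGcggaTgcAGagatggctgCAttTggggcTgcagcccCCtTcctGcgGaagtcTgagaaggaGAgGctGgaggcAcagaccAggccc

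A small regulatory RNA sits in an intron of each gene, and a long one runs against them. Mir208a (chr14:54949060-54949142) lies within Myh6 and had 43, 49 and 37 counts. Mir208b (chr14:54975700-54975776) lies within Myh7 and had 538, 534 and 546 counts. The counts at the 2 hairpins were thus in the reverse order of their host genes, whose counts were 944537, 868054 and 808915 for Myh6 and 14164, 11029 and 10686 for Myh7. Standard libraries of long RNA do not measure mature microRNAs, and how much of these counts came from intron sequence of the host was not tested. The mature forms (RefSeq, GRCm38.p6) share the seed, bases 2 to 8, given in capitals.
mmu-miR-208a-3p: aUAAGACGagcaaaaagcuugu
mmu-miR-208b-3p: aUAAGACGaacaaaagguuugu
Mhrt, a long noncoding RNA of the mouse heart, is annotated on the plus strand at chr14:54968678-54974349 and overlaps one end of Myh7. It had 138.5, 168.2 and 166.6 TPM, at rank 526, above Myh7 in all 3 libraries. Whether strand was used in counting is not given in the sources used here. If it was not, reads of Mhrt and of Myh7 in the shared stretch cannot be told apart.

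Light chains followed the ventricular pattern. Myl2, the ventricular regulatory light chain, had 8033, 7694 and 7613 TPM, while its atrial counterpart Myl7 had 6 counts over the 3 libraries. Myl3, the ventricular essential light chain, had 5342 ± 61.2 TPM, and its atrial counterpart Myl4 had 0.599 ± 0.0799 TPM. Next in the role stood the nonmuscle chains Myl12a at 385 ± 52.0 TPM and Myl6 at 332 ± 20.04 TPM, of which Myl6 had 63.4 TPM by the longest transcript.

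Muscle actin was 98.01% ± 0.279 Actc1, the cardiac isoform. It had 10200, 15870 and 13300 TPM, a wider spread than Myh6, with replicate 1 lowest and replicate 2 highest. Acta1, the skeletal isoform that is also used by the fetal heart, had 140.4, 202.0 and 102.7 TPM at rank 558. The ratio of Actc1 to Acta1 was 72.7, 78.6 and 129. Smooth muscle actin (Acta2) had 75.2, 158 and 124 TPM, and like Actc1 it was lowest in replicate 1 and highest in replicate 2. The coding sequences of Actc1 and Acta1 are 86.3% identical with no identical run longer than 29 bases, although their proteins are nearly the same. In their first 90 coding bases 14 differ, again in capitals.
Actc1: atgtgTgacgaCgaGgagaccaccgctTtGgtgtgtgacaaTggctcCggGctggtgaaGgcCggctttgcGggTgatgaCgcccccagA
Acta1: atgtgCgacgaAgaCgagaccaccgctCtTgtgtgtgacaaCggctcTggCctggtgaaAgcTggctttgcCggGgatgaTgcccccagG

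The thin filament regulators were the cardiac set. Tnni3, cardiac troponin I, had 4601, 4784 and 5120 TPM, Tnnc1, cardiac troponin C, 4139, 4553 and 4363 TPM, and Tnnt2, cardiac troponin T, 2354, 2447 and 2588 TPM. Their shares of their families were 99.95%, 99.99% and 99.36%. Tnni3 stood at 1.96 ± 0.0135 times Tnnt2, a ratio that moved little between libraries. Tnni1, the slow skeletal and fetal isoform, had 13 counts in all 3 libraries together. Tropomyosin was 95.1% ± 0.578 Tpm1, at 2719 ± 107 TPM.

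Among thick filament accessories, myosin binding protein C was Mybpc3, with 2399 ± 141 TPM. Myomesins, which crosslink thick filaments at the M-band, were the 1 contractile family of 10 without an isoform at 90% or more. Myom1 was nearly constant, at 661.0, 654.1 and 652.2 TPM, while Myom2 had 491, 251 and 261 TPM. Replicate 1 was the high library for Myom2, and Myom1 was among the 10 genes of smallest spread at 10 CPM or more. The giant spring protein titin (Ttn) had 99.9 ± 3.50 TPM at rank 823.

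At the Z-disc, telethonin (Tcap), which caps titin, had 3428, 4784 and 4593 TPM at rank 12. The small heat shock protein Cryab had 2052 ± 124 TPM, desmin (Des), the intermediate filament of muscle, 1205 ± 20.1 TPM and alpha actinin 2 (Actn2) 1192 ± 62.5 TPM. Ankrd1, a stretch-responsive ankyrin repeat protein, had 1383, 616 and 488 TPM. Replicate 1 was over 2-fold above both other libraries.

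Calcium handling genes held 2.81% of nuclear TPM, of which the pump of the sarcoplasmic reticulum and its regulators held 2.40%. Atp2a2, which encodes SERCA2, had 6159, 6600 and 6648 TPM and made up 99.9% of the SERCA family. Its inhibitor phospholamban (Pln) had 5653, 5330 and 5312 TPM, so the transcripts of pump and inhibitor stood at a ratio of 1.19 ± 0.0900. S100a1, a calcium sensor that activates the pump and the release channel, had 1382 ± 52.5 TPM and the histidine-rich calcium binding protein Hrc 1003 ± 40.9 TPM. Sarcolipin (Sln), which inhibits the pump in atria and in skeletal muscle, had 4 counts in all, 3 or fewer in any library.

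Phospholamban and sarcolipin are both short membrane peptides, and their coding sequences (GENCODE M21, without the stop codon, the start codon in capitals) have 156 and 93 bases.
Pln: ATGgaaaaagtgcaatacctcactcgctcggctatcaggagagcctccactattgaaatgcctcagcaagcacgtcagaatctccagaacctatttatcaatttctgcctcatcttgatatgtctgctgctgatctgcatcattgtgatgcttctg
Sln: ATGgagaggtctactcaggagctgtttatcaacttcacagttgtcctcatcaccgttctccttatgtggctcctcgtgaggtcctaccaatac
Of the deposited lengths, which include untranslated exons, Pln's is 2480 bases, so the coding part is a small share of what was counted.

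Release and storage genes were lower, holding 0.301% of nuclear TPM. Calsequestrin 2 (Casq2), the calcium buffer of the store, had 608, 785 and 694 TPM. Junctophilin 2 (Jph2), which ties the store to the surface membrane, had 344 ± 12.7 TPM and the release channel Ryr2 270 ± 20.6 TPM. Ryr2 was 99.9% of its family, and the skeletal channel Ryr1 had 0.0392 TPM. The exchanger Slc8a1, which removes calcium from the cell, had 108, 143 and 133 TPM, but a mean of 17.8 TPM by the longest transcript, of 18464 bases against a deposited length of 2934. The order of the kinase CaMKII isoforms depended on the gene length used: Camk2g led with 46.5% by the deposited length, and Camk2d led with 46.2% by the longest transcript.

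The ion channel list, 76 genes with transporters and the intercalated disc, held 0.581% of nuclear TPM, and its 58 channel genes alone held 0.192%. The list's median was 9.40 ± 1.28 TPM (n = 3). At 1 TPM or more in every library, 56 of the 76 genes had a median of 19.1 TPM and 39 of the 58 channel genes one of 13.6 TPM, beside 9.94 TPM for the 12303 nuclear genes that passed the same filter. The skeletal muscle sodium channel Scn4a had 11.8 ± 1.06 TPM, and Scn10a, a sodium channel of sensory neurons, 0.864 ± 0.0529 TPM. The beta subunit Scn4b had 22.0 ± 1.01 TPM.

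Cacna1c, the pore of the L-type calcium channel, had 39.6, 33.6 and 36.0 TPM at rank 2197. Its auxiliary subunits Cacna2d1 and Cacnb2 had 29.7 ± 0.635 and 13.3 ± 1.98 TPM, and Cacnb2 had 30.6 TPM by the longest transcript. The T-type channels Cacna1g and Cacna1h were lower, at 4.20 ± 0.364 and 2.77 ± 0.250 TPM.

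The highest potassium channel was Kcnk3 (TASK-1), a two-pore background channel, with 157, 188 and 188 TPM. Kcnip2, the auxiliary subunit of the fast transient outward current, had 153, 106.5 and 109 TPM, above its pore subunits Kcnd2 at 10.7 ± 1.63 TPM and Kcnd3, which held the other 33.0% ± 4.44 of that pair. Kcnh2, the channel of the rapid delayed rectifier, had 40.5, 61.7 and 59.4 TPM, and Kcnq1, the pore of the slow one, 28.2 ± 0.881 TPM. Kcne2, a partner of Kcnh2, had no counts. In the channel closed by ATP, the sulphonylurea receptor Abcc9 (110 ± 18.8 TPM) and the pore Kcnj11 (104 ± 4.40 TPM) stood level. The pore Kcnj8, also a pericyte marker, had 37.3 ± 4.98 TPM. The inward rectifier Kir2 was split, Kcnj2 holding 50.3% ± 2.22 and Kcnj12 47.7% ± 3.01, and Kcnj12 led with 50.5% when the longest transcript gave the length.

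Pacemaker channels were low: Hcn2 had 16.3 ± 3.73 TPM and Hcn4, the channel of the sinus node, 3.43 ± 0.387 TPM. At the intercalated disc, desmoplakin (Dsp) had 318 ± 47.6 TPM, and connexin 43 (Gja1), which carries current between ventricular cells, 316, 259 and 267 TPM. Gja1 made up 92.1% ± 1.02 of the connexins. Gja5, the connexin of atria and conduction fibres, had 2.46 ± 0.215 TPM. Of the 10 channel families formed here, 1 had an isoform at 90% or more, against 9 of 10 contractile families. The 4 listed two-pore potassium genes, not among those families, summed to 182.0 TPM, of which Kcnk3 had 177.7 TPM.

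**Figure D2:**
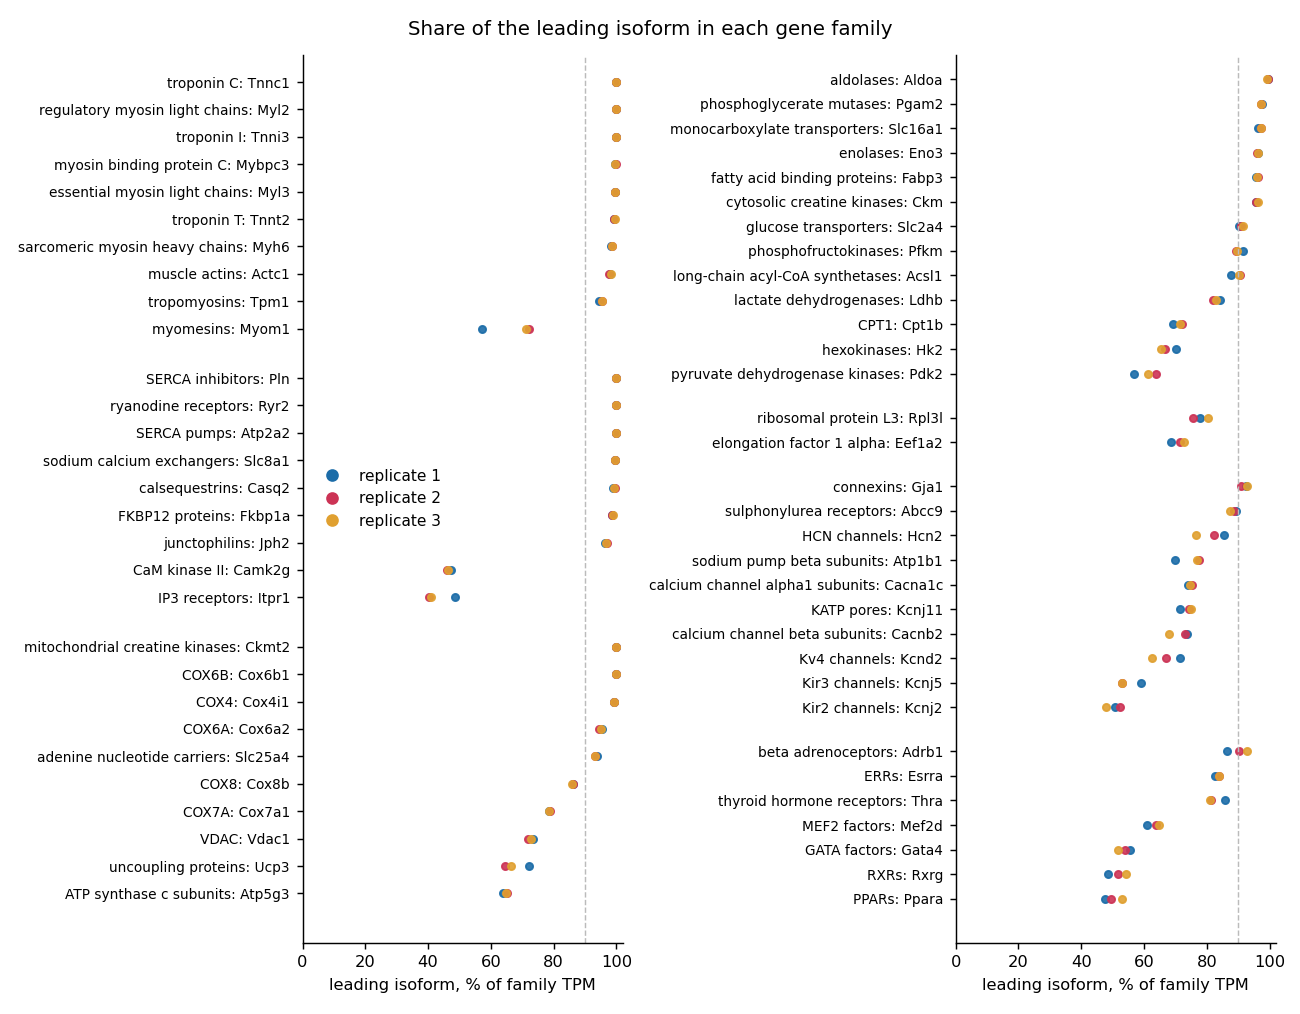
Share of the summed TPM held by the leading isoform of 61 gene families (x axis, percent), 1 line per family with the 3 libraries as points, in blocks of contractile, calcium handling and mitochondrial families at left and of metabolic, translation, channel and regulator families at right. The dashed line marks 90%, which 30 of the 61 families reached.

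The mitochondrially encoded protein genes fell into 2 sets. Mt-Co1, the catalytic subunit of cytochrome oxidase, had 120800, 119700 and 120500 TPM, the highest level of any gene. Cytochrome b (mt-Cytb) had 69140 ± 842 TPM, mt-Nd1 62200 ± 3011 TPM, mt-Nd2 35600 ± 941 TPM, and mt-Nd6, mt-Nd5 and mt-Nd4 between 25240 and 21570 TPM. A run of 6 neighbouring genes lay far lower. Mt-Co2 had 40.5, 39.7 and 42.0 TPM, mt-Atp8 44.3 ± 1.53, mt-Atp6 44.0 ± 2.09, mt-Co3 49.6 ± 4.29, mt-Nd3 473 ± 44.5 and mt-Nd4l 98.8 ± 9.64 TPM. Mt-Co1 thus stood 2957 ± 79.9 times above mt-Co2, its partner in the same enzyme.

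Nuclear copies of mitochondrial sequence lie on chromosome 1 at chr1:24611535-24616197 (GRCm38), a span of 4663 bases with 7 annotated pseudogenes. These match 5 of the 6 low genes almost wholly: 99.6% of mt-Co2 and of mt-Atp6, 99.9% of mt-Co3, 99.1% of mt-Nd3 and 99.0% of mt-Nd4l have a copy there at 99.71% to 100% identity. The sixth, mt-Atp8, overlaps mt-Atp6 and lies between mt-Co2 and mt-Atp6, and no annotated transcript copies it, though the span of the copies runs across its place. Part of 2 high genes was copied, 31.3% of mt-Co1 and 63.6% of mt-Nd4, and none of the other 5 high genes. For 2 of the low genes the copy had counts of like size: Gm28661 had 304, 272 and 250 counts, against 332, 296 and 295 for mt-Co2, and Gm10925 had 345, 323 and 291, against 341, 331 and 320 for mt-Atp6. Gm28437 had 333, 289 and 299 counts, against 513, 399 and 383 for mt-Co3. Counts of the copies were lower for the others, with 66, 61 and 56 in Gm28438, against 2164, 1792 and 1532 for mt-Nd3, and 62, 43 and 43 in Gm10222, against 320, 316 and 332 for mt-Nd4l. The copies of parts of mt-Nd4 and mt-Co1 had 160, 148 and 143 and 330, 287 and 283 counts, against at least 304036 for the genes themselves. How reads that match several places were counted is not given in the sources used here. Levels of the 6 low genes were therefore read no further, and the part of the copies in them was not tested. The levels of mt-Co1 and mt-Nd4 are less certain for the same reason. The first 90 bases of mt-Co2 and of Gm28661 are shown because they do not differ at any base, so that a read within them could come from either.
mt-Co2: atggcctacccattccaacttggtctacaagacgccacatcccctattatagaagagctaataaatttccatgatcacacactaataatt
Gm28661: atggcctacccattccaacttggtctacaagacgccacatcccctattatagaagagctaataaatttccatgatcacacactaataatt
Mt-Nd6 is the 1 protein gene on the minus strand, and since the strand setting is not given, its level may include reads from the plus strand. Transfer RNA genes took 4.90% ± 0.471 of TPM but 0.153% ± 0.0134 of counts, led by mt-Te, mt-Tl1 and mt-Tn at 8629, 8319 and 8099 TPM.

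**Figure D3:**
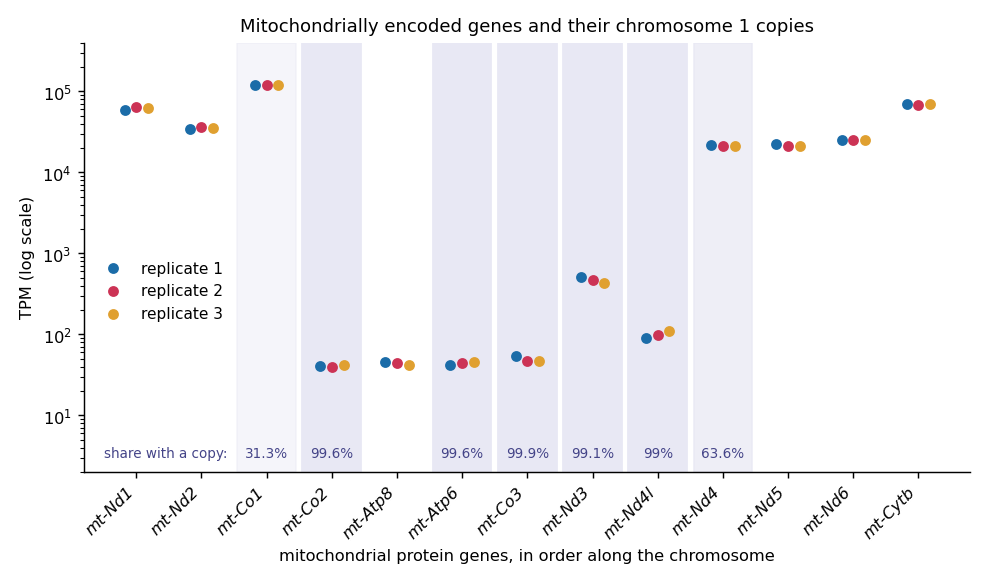
TPM (y axis, log scale) of the 13 mitochondrial protein genes in their order along the chromosome, with the 3 libraries as points. Shading and percentages give the share of a gene with a near-identical copy on chromosome 1. Mt-Co2 to mt-Nd4l lie between 39.7 and 518 TPM, while the means of the genes on both sides are 21570 TPM or more.

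Nuclear genes of the respiratory chain, 92 with the carriers, held 12.16%, 12.53% and 13.01% of nuclear TPM, a share of like size to that of the sarcomere. Replicate 1 was the lowest library. All 36 subunits of complex I, the NADH dehydrogenase, were at 1 TPM or more, with a median of 451 TPM and a range of 55.5 TPM (Ndufb2) to 1811 TPM (Ndufb9). Ndufs6 and Ndufb11 had 975 ± 32.8 and 947 ± 37.3 TPM. The 9 subunits of complex III all lay within 2-fold of their median of 948 TPM, led by cytochrome c1 (Cyc1) at 1501 ± 64.3 TPM and the iron-sulphur protein Uqcrfs1 at 1370 ± 62.5 TPM. By the longest transcript Cyc1 had 875 TPM. In complex II, succinate dehydrogenase, Sdha and Sdhb had 936 ± 30.4 and 919 ± 45.2 TPM and Sdhc 356 ± 18.02 TPM.

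Complex IV, cytochrome oxidase, was led by its muscle isoforms. Cox6a2, the heart and skeletal muscle form, had 4136, 4091 and 4396 TPM and 94.9% ± 0.522 of its pair with Cox6a1. Cox8b had 2417 ± 57.1 TPM and 86.1% ± 0.102 of its pair, and Cox7a1 2298 ± 78.1 TPM and 78.7% ± 0.166. Cox4i1, the general form, had 2244 ± 80.8 TPM, while Cox4i2 had 18.2 TPM and the testis form Cox6b2 3.22 TPM. In ATP synthase, the catalytic core subunits Atp5a1 and Atp5b had 3575 ± 62.6 and 2818 ± 96.6 TPM, and all 17 members exceeded 100 TPM. The c subunit of the rotor is the product of 3 genes, of which Atp5g3 held 64.6% ± 0.706. Slc25a4, the muscle form of the carrier that exchanges ADP and ATP, had 4422, 5000 and 5012 TPM and 93.4% ± 0.374 of its family. Vdac1, the pore of the outer membrane, had 832 ± 17.3 TPM.

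**Figure D4:**
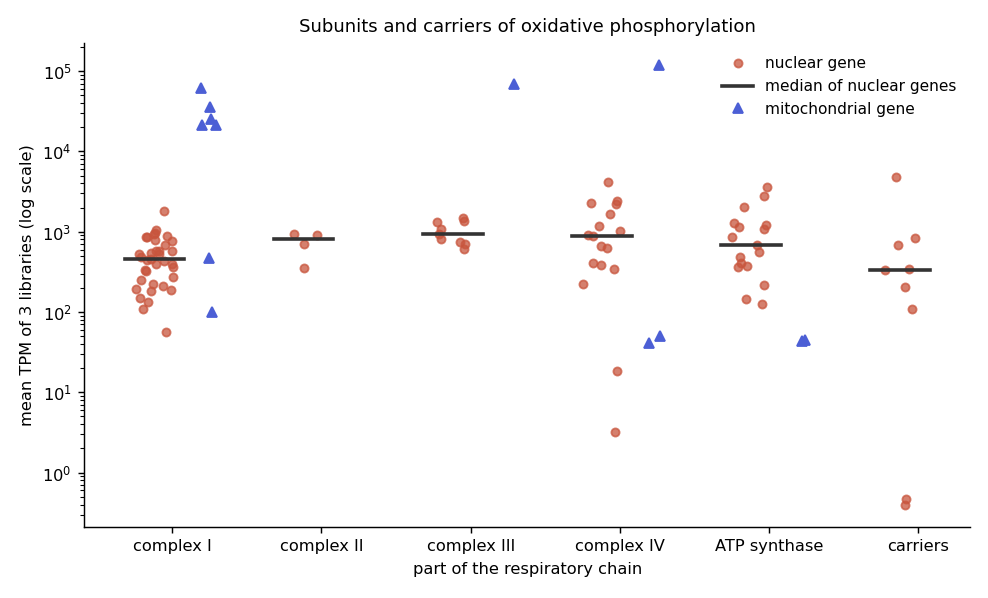
Mean TPM of the 3 libraries (y axis, log scale) for each nuclear gene (circles, with the median as a bar) and each mitochondrial gene (triangles) of the respiratory chain, by complex. Medians of nuclear genes lie between 332 TPM (carriers) and 948 TPM (complex III), and the mitochondrial genes lie either at 21570 TPM and above or at 473 TPM and below.

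The fuel metabolism list held 11.94% of nuclear TPM, and myoglobin was its most abundant member. Myoglobin and the antioxidant enzymes form a role of their own in that list, which alone held 3.68% of nuclear TPM. The share of the genes of fuel use proper was lower by that amount. For fatty acid uptake, Fabp3, which carries fatty acids through the cytosol, had 5690, 6938 and 7253 TPM, with replicate 1 lowest. A processed pseudogene, Fabp3-ps1, copies 48.8% of its longest transcript. Lipoprotein lipase (Lpl) had 1219 ± 16.4 TPM and the fatty acid transporter Cd36 855, 1016 and 1086 TPM. The endothelial and fat cell form Fabp4 had 258 ± 17.2 TPM, 3.76% ± 0.253 of the family.

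The 12 genes that activate and import fatty acids had a median of 23.8 TPM, against 407 TPM for the 15 of beta oxidation. Carnitine acetyltransferase (Crat), carnitine palmitoyltransferase 2 (Cpt2) and the acyl-CoA synthetase Acsl1 had 221 ± 8.70, 217 ± 19.1 and 214 ± 15.9 TPM. Cpt1b, the muscle form of the enzyme that controls entry into mitochondria, had 64.1, 73.4 and 70.0 TPM, and the liver form Cpt1a 27.1 ± 0.395 TPM, so that Cpt1b was 71.0% ± 1.51 of the family. All 15 beta oxidation genes ranked among the first 1000. They were led by the dehydrogenase Acadl at 1169 ± 50.8 TPM, the thiolase Acaa2 at 1123 ± 97.0 TPM and the electron carrier Etfa at 849 ± 60.3 TPM. All 15 citrate cycle genes did so too, led by Idh2 at 1837 ± 113 TPM and Mdh1 at 1782 ± 117 TPM, and citrate synthase (Cs) had 1050 ± 7.88 TPM.

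The genes of glucose use were mainly muscle isoforms. Slc2a4, the insulin-regulated transporter GLUT4, had 299, 323 and 308 TPM and was 90.9% ± 0.625 of the glucose transporters, 23.3 ± 2.37 times above the general transporter Slc2a1. Of the glycolytic enzymes, enolase 3 (Eno3) had 1754 ± 5.27 TPM, aldolase A (Aldoa) 1668 ± 77.9 TPM, Gapdh 1315 ± 22.9 TPM and Pgam2 1130 ± 43.1 TPM. Gapdh has near-identical stretches in 74 other annotated genes, over 35.7% of its longest transcript. Pfkm, the muscle phosphofructokinase, held 90.1% ± 1.13 of its family. Lactate dehydrogenase was mainly the heart form Ldhb, with 2071, 2046 and 2110 TPM, against 389, 450 and 438 TPM for Ldha. Their ratio was 4.90 ± 0.394, and 3.24 with the longest transcript as length.

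Pyruvate dehydrogenase, the gate from glucose to the citrate cycle, had 1026 ± 33.6 TPM of Pdhb and 705 ± 2.88 TPM of Pdha1. Of the kinases that switch it off, Pdk2 had 295 ± 30.4 TPM, and Pdk4, which responds to fasting, 189, 101 and 124 TPM. Ketone use was led by Oxct1 at 766 ± 25.2 TPM, and Bdh1, which takes up beta hydroxybutyrate, had 77.3, 153 and 134 TPM. Replicate 1 was thus highest for Pdk4 and lowest for Bdh1. In the creatine shuttle, the mitochondrial kinase Ckmt2 had 3145 ± 205 TPM and the muscle kinase Ckm 1759 ± 58.4 TPM. Ckm stood 23.5 ± 2.03 times above the brain form Ckb, a ratio of 48.0 with the longest transcript. Of the antioxidant enzymes, Sod1, Gpx4 and Prdx3 led with 746 ± 57.6, 537 ± 10.9 and 399 ± 6.62 TPM, and Sod1 had 106.1 TPM by the longest transcript. Uncoupling protein 3 (Ucp3), a mitochondrial carrier of muscle, had 38.7 ± 5.40 TPM and Ucp2 18.04 ± 0.816 TPM.

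Protein synthesis genes also showed muscle isoforms. Eef1a2, the elongation factor of muscle and neurons, had 1437 ± 63.5 TPM, 2.46 ± 0.248 times the general form Eef1a1. Rpl3l, a ribosomal protein restricted largely to muscle, stood 3.57 ± 0.494 times above Rpl3. With the longest transcript as length the ratios were 1.77 for Eef1a2 and 2.57 for Rpl3l. Processed pseudogenes copy 79.4% of Eef1a1 and 64.7% of Rpl3, so the levels of the general forms are less certain. The listed ribosomal proteins were led by Rplp1 at 1383 ± 37.8 TPM, nearly all of which has a copy in Gm10073.

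Transcription factors and hormone receptors, 52 genes, held 0.215% of nuclear TPM. Nkx2-5, a homeobox factor of cardiac identity, had 92.5, 110 and 108 TPM and was the highest of the 17 cardiac transcription factors. Mef2d, Srf and Gata4 followed at 62.5 ± 0.717, 57.7 ± 1.88 and 55.8 ± 1.61 TPM. Mef2a, not Mef2d, led the MEF2 family with 43.9% when the longest transcript was used. Hand1 had no counts, and Shox2 stood at 0.329 TPM. Among metabolic factors, Esrra, a nuclear receptor of mitochondrial genes, had 146, 178 and 172 TPM, 7.36 ± 0.831 times Ppara, the receptor for fatty acids. Rxrg at 65.1 ± 5.14 TPM and the coactivator Ppargc1a at 38.0 ± 2.85 TPM came next. Of hormone receptors, the muscarinic receptor Chrm2 was the highest, at 44.9, 45.1 and 44.9 TPM, followed by Thra at 37.7 ± 3.83 TPM, the angiotensin receptor Agtr1a at 35.2 ± 1.23 TPM and Npr2 at 32.3 ± 1.60 TPM. Beta adrenoceptors were 89.8% ± 3.14 Adrb1. The oestrogen receptor Esr1 had 0.0988 TPM and the progesterone receptor Pgr no counts.

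Natriuretic peptides, hormones that the heart secretes under stretch, varied between libraries. Nppb had 440, 284 and 198 TPM and Nppa 233, 197 and 153 TPM, both highest in replicate 1 and lowest in replicate 3. The ratio of Nppb to Nppa was 1.89, 1.44 and 1.30. Corin, the protease that activates them, had 95.7, 120 and 123 TPM, in which replicate 1 was the lowest.

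Markers of heart muscle and of other cells were read next, as a check of the labelled tissue. All 12 cardiomyocyte markers were at 99.9 TPM or more, with a median of 4552 TPM. Atrial markers stood near 0: Sln, Bmp10, Myl7 and Myl4 had 0.0864, 0.0522, 0.303 and 0.599 TPM. Nppa and Pam, which are in the atrial list too, had 194 and 126 TPM. The ventricular factors Irx4 and Hey2 had 35.7 ± 2.86 and 3.05 ± 0.364 TPM. Sln, Bmp10 and Myl7 had 5 counts or fewer in each library, and Myl4 had 34, 26 and 32 counts. The labels give no chamber. Conduction markers had a median of 0.865 TPM, led by Tbx3 at 5.09 ± 0.655 TPM, and Isl1 had no counts.

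Of the cell types other than heart muscle, the erythroid list had the highest median, 114.2 TPM (164.9, 76.97 and 100.7 by library). Endothelial markers came next with a median of 50.4 TPM and all 15 at 1 TPM or more. Among them Ly6c1 had 161 ± 21.5, caveolin 1 (Cav1) 158 ± 23.7, VE-cadherin (Cdh5) 98.6 ± 13.5 and endoglin (Eng) 97.8 ± 3.45 TPM. Pericyte markers had a median of 26.9 TPM, led by Rgs5 at 269 ± 19.3 TPM, and fibroblast markers one of 25.1 TPM, with the proteoglycan decorin (Dcn) at 443, 357 and 357 TPM, or a mean of 149.8 TPM by the longest transcript. Macrophage markers had a median of 11.2 TPM, with lysozyme (Lyz2) at 221, 174 and 149 TPM and C1qa, a complement subunit of resident macrophages, at 88.3 ± 11.6 TPM. Ccr2, the receptor of recruited monocytes, had 0.726 TPM.

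Endocardial, smooth muscle and lymphatic endothelial lists had medians of 12.9, 7.82 and 5.62 TPM. Lists of Schwann and neural cells, mast cells, platelets and white fat cells had medians of 0.721, 0.799, 0.458 and 0.359 TPM, and mesothelial markers one of 0.0800 TPM. Lymphocyte and neutrophil markers had medians of 0.634 and 0.355 TPM, and S100a9 of neutrophils had 2.55, 3.16 and 9.71 TPM. Haemoglobin was present at 1061, 556 and 664 TPM of Hbb-bs, and Hba-a1 followed with 634, 341 and 438 TPM. Their copies Hbb-bt and Hba-a2 are 99.8% identical in the coding sequence, so reads may have been split between them. In the skeletal muscle list Myh1, Myh2 and Myh4 were below 0.1 TPM, while Ckm and Myot, which the heart also uses, were not. Of brown fat genes, Cox8b was high, and Ucp1 and Elovl3 had 0.289 and 0 TPM. Thymus, lung and liver markers had medians of 0.0216, 0 and 0.276 TPM, and albumin (Alb) had 2.49, 0.587 and 0.333 TPM.

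**Figure D5:**
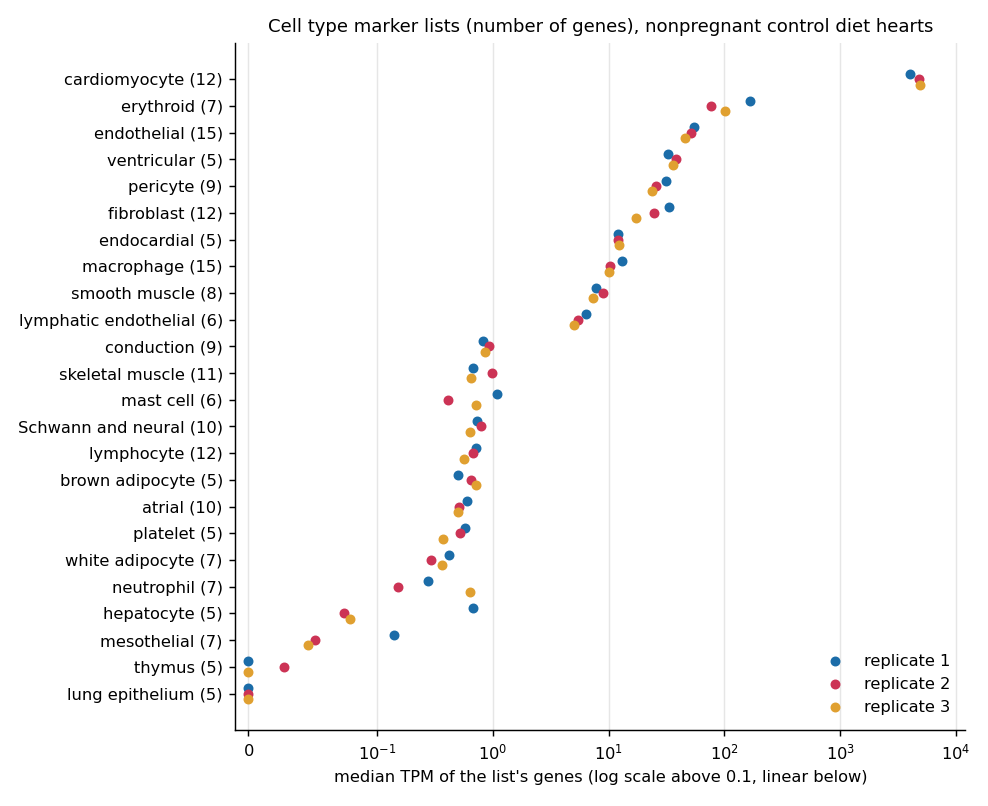
Median TPM of 24 cell type marker lists in each library (x axis, log scale above 0.1 and linear below), with the number of genes in brackets. Cardiomyocyte markers lie near 4552 TPM, endothelial, pericyte and fibroblast lists near 50.4, 26.9 and 25.1 TPM, and thymus and lung lists at or near 0.

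Matrix genes held 0.302% of nuclear TPM. Basement membrane collagen exceeded fibrillar collagen: Col4a1 and Col4a2 had 96.5 ± 19.3 and 95.6 ± 12.6 TPM, against 27.2 ± 11.1 TPM for Col3a1 and 23.0 ± 5.20 TPM for Col1a1. Summed over 15 collagens, the libraries had 480.5, 375.8 and 302.2 TPM, and the 12 fibroblast markers had sums of 1810, 1495 and 1399 TPM, in the same order of libraries. After decorin, the other matrix proteins were led by Sparcl1 at 302, 209 and 189 TPM, laminin beta 2 (Lamb2) at 161 ± 12.6 TPM and Sparc at 184, 163 and 123 TPM. Periostin (Postn), a protein of activated fibroblasts, had 7.42 TPM.

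The genes in which replicate 1 stood apart were counted after its values were seen. The correlations of log2 CPM given at the start are across the 8099 genes at 10 CPM or more, which are not independent replicates. Replicate 1 lay over 1.5-fold above both others for 67 genes and below both for 26, while replicate 2 did so for 3 and 0 genes and replicate 3 for 4 and 8. Of the 12682 genes at 1 CPM or more in every library, 53.7% were highest in replicate 1 and 26.6% lowest. Collagens were highest there in 14 of 15 genes, with a median log2 difference from the mean of the others of 0.55, genes of the laminin and matricellular list in 17 of 20 (0.34), macrophage markers in 12 of 15 (0.32) and erythroid markers in 5 of 5 (0.78). Complex I genes were lowest there in 30 of 36 (median log2 difference -0.12) and complex III genes in 8 of 9 (-0.13). The part of these markers in the other differences of replicate 1 was not tested.

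Few genes differed much between the libraries. The median SD of log2 CPM over the 8099 genes was 0.10, and 40 genes, 0.494% of them, had an SD over 0.5. The 10 largest SDs were taken among named genes at 10 CPM or more in the mean, not in every library. The largest of these belonged to Serpina3n, an acute phase inhibitor, with 4.39, 10.9 and 26.3 CPM. Ccn2, a matricellular growth factor, had 112, 35.0 and 39.9 CPM, and Txnip, a thioredoxin inhibitor induced by glucose, 766, 298 and 284 CPM. Of 4 antigen presentation genes, H2-Aa had 42.9, 22.8 and 12.3 CPM, and H2-Eb1, H2-Ab1 and their chaperone Cd74 had the same order of libraries. Ptgds, a prostaglandin synthase, was lowest in replicate 1, with 140, 342 and 377 CPM. Col14a1 and the insulin signalling adaptor Irs2 completed the 10, both highest in replicate 1. The most constant genes included Bnip2, with 98.5 CPM in each library, the nucleic acid binding protein Cnbp with 297, 298 and 298 CPM, Cenpb, Camsap1, Trappc11, Metap1, Rps20, Myom1, Rnf167 and Mrps7.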

How the data were processed

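The deposited files hold unnormalized read counts for each gene and the gene's length. The authors aligned the reads with STAR 2.5.2b and counted them with featureCounts of Subread 1.5.2 on GRCm38 (mm10), with FastQC for quality, per the submitters' processing notes. The labels name Qiagen's RNeasy kit for extraction and NEBNext Ultra RNA for the libraries. For strand, multi-mapped reads, read length and annotation, the settings were not given in the sources used here.

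From the counts, CPM (by total counts) and TPM (by the deposited length, which for all 49315 genes equals the merged exons listed in the files) were computed for the 3 control diet nonpregnant libraries in Python 3.11.15 with pandas 2.3.3. The TPM code was tested on simulated data. Gene names came from a separate reference list, which gave a symbol to 48970 of 49315 genes. The 345 others took 0.0225% of counts. Gene types, transcripts and coding sequences came from GENCODE M21. The files' annotation is not that release: the deposited length was shorter than the longest GENCODE M21 transcript for 2776 of 49056 genes. Near-identical copies were sought with megablast (BLAST+ 2.17.0, 98% identity over at least 75 bases) among annotated transcripts, and TMM factors came from edgeR 4.0.16. For 685 genes searched, 588 had none and 55 had one over 20% or more of the longest transcript. Replicate pairs differed by more than sampling noise (chi-square per degree of freedom 15.4, 15.2 and 3.80), so no pair was taken for repeat files of one library, which does not show separate mice.

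No test between groups was run. The gene lists, families and members were chosen with earlier results of these data known. Genes are named by rule: the 15 highest by TPM and by CPM, up to 4 highest of each role, and the 10 of largest and of smallest spread. Those of largest spread had 10 CPM or more in the mean, and those of smallest spread had it in each library. The rule also names the 5 rising and 5 falling most in rank between CPM and TPM among the first 200. Isoforms, low members and defining markers were added after their values were seen. A few genes that the rule names, and the families that hold them, are not reported here. Alternatives were other lengths, denominators, scaling, filters, thresholds and leaving out each library. Reads carry no molecular identifiers, so floors cover counting error only.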

Additional observations from a re-analysis of the deposited data

How the results depend on the processing

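With the effective length (deposited length less 200 bases, plus 1), mitochondrial genes took 39.7% of TPM and the nuclear respiratory chain list 14.5% of nuclear TPM. With the longest transcript as length, mitochondrial genes took 35.5% of TPM, the sarcomere list 14.1% and the respiratory chain list 13.05% of nuclear TPM, the ratio of Myh6 to Myh7 was 75.1, and the median of the ion channels list was 11.02 TPM; 3 of 61 families changed their leading isoform, and 105 of 663 list members moved by over 1.5-fold, 91 up and 14 down. Among named list members, Tnnt2 (5014 TPM), Camk2d (50.0 TPM), Cacnb2 (30.6 TPM) and Atp5g3 (2829 TPM) were over 2-fold higher by the longest transcript. So were Lpl (2714 TPM), Aldoa (3542 TPM), Mef2a (63.3 TPM) and Pam (320.4 TPM). Those over 1.5-fold lower by it included Myl6, Slc8a1, Cyc1, Sod1, Dcn, Pdhb (560.3 TPM) and Ckb (34.2 TPM). Leaving mitochondrial genes out of the denominator raised all nuclear TPM by about 1.68-fold, so that 224.3 genes held 0.5 of TPM and the ion channels list had a median of 15.8 TPM. Among protein-coding genes only, mitochondrial genes took 38.7% of TPM, the sarcomere list 12.7% and the respiratory chain list 13.2% of nuclear TPM. Without genes under 10 counts in any library the ion channels list had a median of 12.4 TPM, over fewer members. At a threshold of 5 TPM, 8329 genes were detected. With TMM scaling, or without replicate 1, 2 or 3, the 7 main values with an SD moved by less than the spread between libraries. For the left-out libraries this was fixed in advance, since leaving out 1 of 3 cannot move a mean by a whole SD. TMM scaling uses 1 factor per library, so it cannot change shares or ratios. Neither therefore measures how stable these values are. Without 1 library the ratio of Myh6 to Myh7 lay between 96.3 and 104.4. Genes at 1 TPM in every library numbered 12721 to 12803 when 1 library was left out, fewer libraries having to pass, and families led at 90% or more 30 to 31. The cause was not tested where a value moved other than by the construction of the scale. Precision is limited by the choice of length, for short features, for genes near the floor of 3 counts and for genes with near-identical copies. No paired analysis was possible because 1 group was described and no result comes from a test.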

Other observations

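Of the first 100 nuclear genes, 19 belong to no list described above. Ferritin heavy chain (Fth1), the iron store, was the highest of them by the deposited length, with 3230, 3143 and 3465 TPM at rank 15. The LIM protein Fhl2 had 1637, 2089 and 2130 TPM, and the cardiovascular heat shock protein Hspb7 1638, 2056 and 1955 TPM, with replicate 1 lowest in both. Chchd10, a protein of mitochondrial cristae, had 1672 ± 61.1 TPM and basigin (Bsg), the partner of the lactate transporter Slc16a1, 1523 ± 26.3 TPM. Next stood Ndrg2 at 1411 ± 55.9 TPM and Ech1, a fatty acid isomerase of mitochondria and peroxisomes, at 1149, 1134 and 1364 TPM. Glycogen phosphorylase of muscle (Pygm) had 925 ± 34.2 TPM, and the aspartate aminotransferase Got1 had 688, 1032 and 995 TPM, lowest in replicate 1. These genes were named for their rank after their values were seen. The order depended on the gene length used. By the longest transcript Fth1 had 1204 TPM at rank 56, below Fhl2, Hspb7 and Bsg at 2071, 1647 and 1583 TPM. Chchd10 had 922.5 TPM by that length.

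Long noncoding RNAs were led by Malat1, a nuclear RNA of most cell types, with 549.9, 592.5 and 573.9 TPM at rank 142. Gm42418 had 326, 614 and 312 TPM, a spread of 170 TPM around a mean of 417 TPM. Mir6236, a short feature, had the same high library, with 795, 1252 and 690 counts. Neat1, the scaffold of paraspeckles, had 142 ± 14.6 TPM, below Mhrt at 158 ± 16.7 TPM. Annotated lincRNA genes together held 0.543% ± 0.0100 of counts.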
